A study of Mus musculus with 6 samples.

Results

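Ribosome biogenesis and RNA polymerase I genes were examined as 44 named mouse genes, chosen for their known roles in making ribosomes, in the cortex of embryos lacking the Hippo kinases Lats1 and Lats2. Each gene was read from an array row annotated with its symbol alone, and of several such rows the one with the highest mean over the 6 arrays was kept. On that rule 42 of the 44 had a row, of 22180 genes with a row in all. All 42 passed the filter on dim genes, which left 16724 genes to test. Fbl, which encodes the methyltransferase of box C/D snoRNPs, and Tsr1, a factor of late small-subunit maturation, shared their rows with other symbols and have no value here. The 42 were parted by role into RNA polymerase I and its factors (7), snoRNP proteins and nucleolar organisers (8), small-subunit processing factors (16) and large-subunit assembly factors (11).

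The mutant embryos (DKO, for double knock-out) carried the loxP-flanked alleles Lats1F/F and Lats2F/F together with Nestin-Cre, a Cre driven by Nestin regulatory sequence in neural progenitors, whose descendants inherit the deletion. The other embryos are labelled as control alone, so which of these alleles they carry is not stated. Whole cortex was dissected from untreated embryos at E12.5, each sample from an embryo of its own, and total RNA of 3 DKO and 3 control embryos was read on 1 Affymetrix whole-transcript array each. Values are log2 signals after normalization between arrays, a difference is DKO minus control, and the number of arrays limits the precision.

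Ribosome production begins in the nucleolus, where RNA polymerase I copies the ribosomal DNA repeats into a long precursor. SnoRNPs modify the precursor, the small-subunit processome and large-subunit factors cut and fold it onto ribosomal proteins, and late factors escort both subunits to the cytoplasm. Demand for this pathway is high in proliferating neural progenitors, and many of its genes are known targets of Myc. The arrays read the transcripts of these factors, and the synthesis of ribosomal RNA was not analysed here.

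The targeted genes and the tissue were checked first. Lats1 read 7.82, 7.82 and 7.74 in DKO 1 to 3, against 8.81, 8.34 and 8.98 in control 1 to 3, so that every DKO array lay below every control array. Its difference was -0.91 ± 0.14 (SE), with a limma adjusted p of 0.0189, and with single arrays removed it missed the threshold without DKO 1 (0.0875), DKO 3 (0.0811), control 1 (0.0809) or control 3 (0.0571). Lats2 was not lower, at 7.36, 7.18 and 7.27 in DKO 1 to 3 against 7.16, 6.84 and 7.11 in control 1 to 3 (limma adjusted p 0.285). The deleted exons and probe positions are not given in the sources used here, so whether the Lats2 row checks the deletion is not known. The measured markers of the dorsal cortex, 7 of 8 named, had mean levels of 9.32 to 9.40 in DKO and 9.32 to 9.37 in control arrays, and 0 of them passed the test. These means average opposite differences: 4 markers had lower DKO means, with no overlap for the transcription factors Emx1 (-0.30), Emx2 (-0.18) and Lhx2 (-0.17), and 3 had higher ones, with no overlap for the progenitor genes Nes (0.24) and Hes1 (0.37).

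Of the biogenesis genes, 0 of 42 passed the test over all genes in either direction (limma, Benjamini-Hochberg adjusted p under 0.05). The smallest limma adjusted p was 0.0728. Over all 16724 genes 1.72% passed, and at that share 0 of 42 says little about the members. At an unadjusted limma p under 0.05, 11 members were higher and 0 lower in DKO, where 6.39% of all genes were higher and 9.18% lower. A higher mean in DKO was found for 37 of the 42, or 88.1%, against 39.8% of all genes tested; with each array centred on its median these were 41 of 42 and 49.7%. The median difference of the 42 was 0.09, and that of all genes was -0.03. In 18 members all 3 DKO arrays lay above all 3 control arrays, a pattern held by 8.22% of all genes. On the rows kept, the opposite pattern was held by 0 members and by 13.4% of all genes.

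Single differences ran from -0.04 for Taf1b to 0.29 for Heatr1. The highest upper limit of any member's 95% limma interval, unadjusted for the number of genes, was 0.48 (Pno1), a 1.40-fold higher level. The lowest lower limit was -0.20 (Rrp1b), or a 1.15-fold lower level. In whole tissue, fewer cells of a type and less RNA per cell cannot be told apart.

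**Figure D1:**
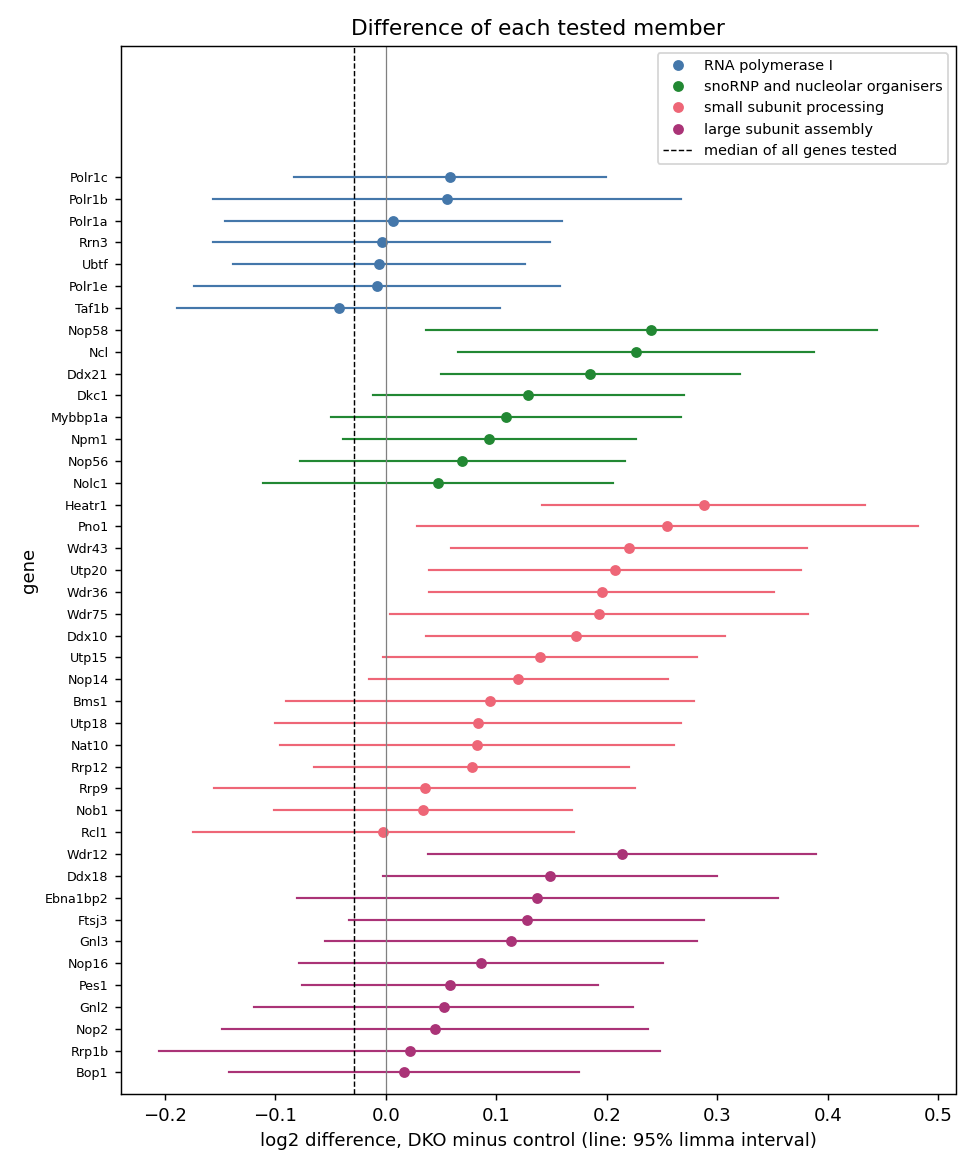
Difference of each of the 42 tested members on the log2 scale, DKO minus control; points are the limma estimates, horizontal lines their 95% intervals, colours the role classes, and the dashed line the median of all genes tested (-0.03). The 7 RNA polymerase I genes lie on both sides of 0 (6 of 7 above 0 with arrays centred on their median), and 34 of the 35 members of the other classes lie above 0 (35 of 35 when centred).

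The promoters were looked up because ribosome biogenesis genes are known for the sequence CACGTG, the E-box bound by Myc with Max. RefSeq promoter windows on GRCm38.p6, 250 bases before to 50 after a start site, were matched by symbol for 38 of the 44 genes (46 windows, 3 genes having more than 1). CACGTG, which reads the same on both strands, stood in 9 of the 46 windows, or 19.6%, against 7.15% of all 32851 windows in the table and 16.5% of 109 windows of other ribosome biogenesis genes. CATTCC or its reverse complement GGAATG is the core sequence bound by TEAD factors. Either stood in 3 of the members' windows (6.52%), 8.26% of those of other ribosome biogenesis genes and 14.7% of all windows. The members' windows held 59.4% G and C, against 53.8% over the table, so the sets differ in base composition. The genes with an E-box are shown with it in capitals. For Rrn3, Nop2 and Utp18 it lies before the start site, and the 250 bases before the start are given.
Rrn3, chr16:13780449-13780698, plus strand: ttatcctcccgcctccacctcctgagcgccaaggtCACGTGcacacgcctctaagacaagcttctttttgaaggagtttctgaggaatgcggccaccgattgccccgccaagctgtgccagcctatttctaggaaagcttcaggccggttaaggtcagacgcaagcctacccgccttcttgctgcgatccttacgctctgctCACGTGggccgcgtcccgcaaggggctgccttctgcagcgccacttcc
Nop2, chr6:125131633-125131882, plus strand: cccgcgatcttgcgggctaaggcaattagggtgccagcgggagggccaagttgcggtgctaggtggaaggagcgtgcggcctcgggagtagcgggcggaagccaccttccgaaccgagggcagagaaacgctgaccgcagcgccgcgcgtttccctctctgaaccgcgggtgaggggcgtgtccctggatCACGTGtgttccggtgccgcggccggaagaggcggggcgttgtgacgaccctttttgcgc
Utp18, chr11:93885767-93886016, minus strand: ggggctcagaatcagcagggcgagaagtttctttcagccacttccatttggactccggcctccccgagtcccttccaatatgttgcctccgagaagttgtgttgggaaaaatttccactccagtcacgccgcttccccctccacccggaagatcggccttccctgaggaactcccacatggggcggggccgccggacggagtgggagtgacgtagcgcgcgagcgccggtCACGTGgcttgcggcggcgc
For the other 6 genes, 30 bases that include the E-box at or after the start site are given.
Utp20, chr10:88826765-88826794, minus strand: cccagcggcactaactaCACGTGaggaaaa
Pno1, chr11:17211540-17211569, minus strand: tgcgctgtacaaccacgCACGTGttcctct
Wdr43, chr17:71616220-71616249, plus strand: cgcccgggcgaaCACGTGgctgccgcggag
Mybbp1a, chr11:72441347-72441376, plus strand: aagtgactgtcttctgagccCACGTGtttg
Tsr1, chr11:74898092-74898121, plus strand: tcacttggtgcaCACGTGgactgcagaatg
Pes1, chr11:3963965-3963994, plus strand: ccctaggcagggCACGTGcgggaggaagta
Heatr1, the member with the smallest p, is shown for comparison and held neither motif in its window.
Heatr1, chr13:12395125-12395374, plus strand: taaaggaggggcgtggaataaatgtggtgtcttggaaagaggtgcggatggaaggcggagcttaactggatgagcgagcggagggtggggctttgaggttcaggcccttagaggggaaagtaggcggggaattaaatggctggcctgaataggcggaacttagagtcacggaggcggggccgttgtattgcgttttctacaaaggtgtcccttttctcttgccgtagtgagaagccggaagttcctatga
The 8 tested genes with an E-box had a median difference of 0.10 (from -0.0037 to 0.25), against 0.09 (from -0.04 to 0.29) in the 29 tested genes with a window and no E-box. In 4 of the 8 and in 12 of the 29 every DKO array lay above every control array, against 8.22% of all genes tested.

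For RNA polymerase I and its factors no difference beyond the spread of the arrays was detected. Of the 7 genes, 3 had a higher and 4 a lower mean in DKO, the median difference was -0.0037, and the groups overlapped for all 7; with arrays centred on their median 6 had a higher mean and the median was 0.02. Polr1a, the largest subunit, read 8.58, 8.45 and 8.42 in DKO 1 to 3, against 8.45, 8.47 and 8.52 in control 1 to 3 (difference 0.0069 ± 0.07 SE). Polr1b, which forms the active centre with Polr1a, read 8.26, 7.93 and 8.13 in DKO 1 to 3, against 7.998, 8.001 and 8.15 in control 1 to 3 (0.06 ± 0.09 SE). For both subunits the highest reading was that of DKO 1, and the other DKO arrays lay within or below the range of the controls. Polr1c, a subunit shared with RNA polymerase III, read 10.10, 10.08 and 10.04 in DKO 1 to 3, against 9.94, 10.06 and 10.04 in control 1 to 3. Polr1e, a subunit that helps the polymerase to bind its initiation factors, read 7.19, 7.02 and 7.08 in DKO 1 to 3, against 7.02, 7.17 and 7.13 in control 1 to 3. The difference was 0.06 ± 0.06 (SE) for Polr1c and -0.0079 ± 0.07 (SE) for Polr1e, with limma adjusted p values of 0.705 and 0.972.

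The initiation factors overlapped between the groups too. Rrn3, which ties the polymerase to its promoter and whose E-boxes are shown above, read 9.46, 9.34 and 9.31 in DKO 1 to 3, against 9.35, 9.34 and 9.43 in control 1 to 3. Its difference was -0.0037 ± 0.07 (SE), with a limma adjusted p of 0.986 and a 95% interval from -0.16 to 0.15. Ubtf, the factor that coats active ribosomal DNA, read 9.20, 9.18 and 9.22 in DKO 1 to 3, against 9.25, 9.18 and 9.19 in control 1 to 3. Readings of the groups interleaved, and the 95% interval of the Ubtf difference (-0.0062 ± 0.06 SE) ran from -0.14 to 0.13. Taf1b, a subunit of the promoter selectivity factor, had the lowest difference of the 42, at -0.04 ± 0.06 (SE, limma adjusted p 0.80). It read 8.47, 8.57 and 8.54 in DKO 1 to 3, against 8.57, 8.51 and 8.63 in control 1 to 3, with the lowest reading in DKO 1.

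**Figure D2:**
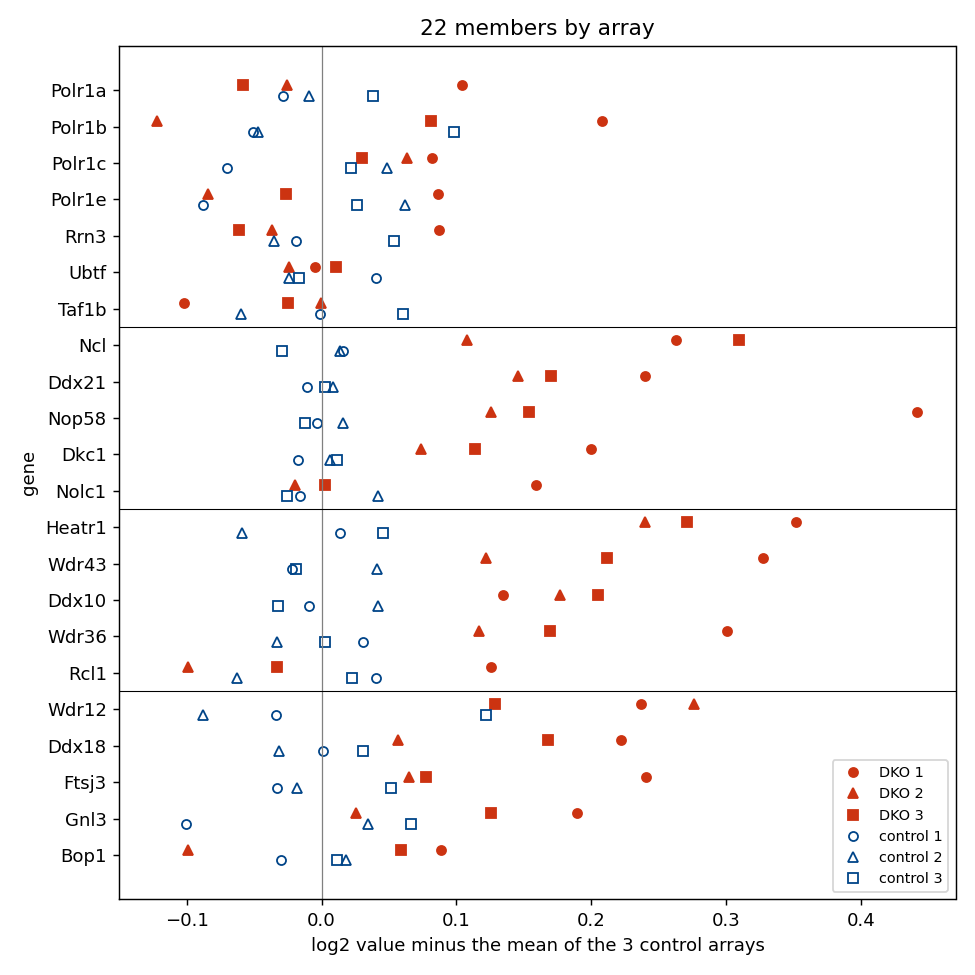
Log2 value of each array minus the mean of the 3 control arrays, for the 22 members whose array values are given in the text; filled red symbols are DKO arrays, open blue symbols control arrays, and black lines part the role classes (from the top RNA polymerase I, snoRNP and nucleolar organisers, small subunit, large subunit). DKO and control symbols mix for the polymerase genes, and all 3 red symbols lie to the right of the blue ones for genes such as Heatr1, Ncl and Ddx21.

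SnoRNP proteins and nucleolar organisers had higher means in DKO for all 8 measured genes, against 39.8% of all genes, with a median difference of 0.12. The test was passed by 0 of 8 and by 1.72% of all genes. All DKO arrays lay above all control arrays for 5 of the 8 and for 8.22% of all genes. Ncl encodes nucleolin, which binds nascent precursor RNA, and read 10.36, 10.21 and 10.41 in DKO 1 to 3, against 10.12, 10.12 and 10.07 in control 1 to 3. Its difference was 0.23 ± 0.07 (SE), a 1.17-fold higher mean, with a limma adjusted p of 0.177. The control arrays of Ncl were close together, and the lowest DKO array stood above them. Ddx21, an RNA helicase that acts in ribosomal RNA transcription and processing, read 9.78, 9.69 and 9.71 in DKO 1 to 3, against 9.53, 9.55 and 9.55 in control 1 to 3 (0.19 ± 0.06 SE, limma adjusted p 0.187). A second, dimmer row annotated to Ddx21 went the other way, with every DKO array below every control array. It read 6.77, 6.58 and 6.82 in DKO 1 to 3, against 6.94, 6.88 and 6.88 in control 1 to 3. Its difference was -0.18, and the mean of both rows had one of 0.0021 (limma adjusted p 0.991).

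Nop58 and Dkc1 stand for the snoRNP classes that guide ribose methylation and pseudouridylation. Nop58, a core protein of box C/D snoRNPs, read 9.18, 8.87 and 8.89 in DKO 1 to 3, against 8.74, 8.76 and 8.73 in control 1 to 3. Its difference of 0.24 ± 0.09 (SE, limma adjusted p 0.245) depended in size on DKO 1, and was 0.14 without that array. Nop56, the partner of Nop58 in the same particles, overlapped between the groups, with a difference of 0.07 ± 0.06 (SE), or 0.00058 over the mean of its 3 rows. Dkc1, the X-linked pseudouridine synthase dyskerin, read 9.51, 9.38 and 9.42 in DKO 1 to 3, against 9.29, 9.31 and 9.32 in control 1 to 3. All DKO readings of Dkc1 were above the controls, by 0.13 ± 0.06 (SE) on average (limma adjusted p 0.364). Nolc1, a chaperone of snoRNPs, lay nearest 0 in the class, at 8.81, 8.64 and 8.66 in DKO 1 to 3 against 8.64, 8.70 and 8.63 in control 1 to 3 (0.05 ± 0.07 SE). Npm1, the abundant histone and ribosomal protein chaperone nucleophosmin, had a difference of 0.09 with no overlap, and Mybbp1a, a nucleolar protein that binds Myb, one of 0.11 with overlap.

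Small-subunit processing factors had a median difference of 0.13, and 15 of 16 had a higher mean in DKO, against 39.8% of all genes. The test was passed by 0 of 16 and by 1.72% of all genes. All DKO arrays lay above all control arrays for 9 of the 16 and for 8.22% of all genes. At an unadjusted limma p under 0.05, 7 were higher, against 6.39% of all genes. Heatr1, a large scaffold protein that links ribosomal DNA transcription to early processing, read 9.09, 8.97 and 9.004 in DKO 1 to 3, against 8.75, 8.67 and 8.78 in control 1 to 3. Its difference of 0.29 ± 0.06 (SE), a 1.22-fold higher mean, was the largest of the 42 members and missed the threshold with a limma adjusted p of 0.0728. The call depended on the fit: adjusted p was 0.0388 with the stricter filter, 0.0274 with a trended variance and 0.0381 after a repeated quantile normalization. With any single array removed the difference stayed between 0.26 and 0.31 and was not called. Wdr43, of the same early subcomplex, read 9.68, 9.48 and 9.57 in DKO 1 to 3, against 9.33, 9.40 and 9.33 in control 1 to 3 (0.22 ± 0.07 SE, limma adjusted p 0.188).

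Several other early members of the processome were separated between genotypes. Wdr75 and Utp15, further members of that subcomplex, had differences of 0.19 ± 0.08 (SE) and 0.14 ± 0.06 (SE), and the DKO arrays of both lay above the controls. Wdr36, a scaffold protein of a second subcomplex, read 9.19, 9.01 and 9.06 in DKO 1 to 3, against 8.92, 8.86 and 8.89 in control 1 to 3 (0.20 ± 0.07 SE, limma adjusted p 0.221). Utp18, which belongs to the same subcomplex as Wdr36, overlapped between groups, with a difference of 0.08 ± 0.08 (SE). Ddx10, an RNA helicase, read 6.91, 6.95 and 6.98 in DKO 1 to 3, against 6.76, 6.81 and 6.74 in control 1 to 3. DKO 1 was the lowest DKO array for Ddx10, unlike for most members. Its difference was 0.17 ± 0.06 (SE), with a limma adjusted p of 0.216.

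The other small-subunit factors were mixed. Pno1, an RNA-binding factor of the maturing subunit with an E-box shown above, had the widest interval of the class: its difference was 0.25 ± 0.10 (SE), and the DKO arrays ran from 8.16 to 8.54 against 8.01 to 8.16 in control. Without DKO 1 the difference of Pno1 was 0.15. Nob1, the endonuclease that makes the final cut, had a difference of 0.03 ± 0.06 (SE) and overlapping groups. Rcl1, which acts with the GTPase Bms1, had the one lower DKO mean of the class, at -0.0021 ± 0.08 (SE, limma adjusted p 0.992). It read 7.67, 7.44 and 7.51 in DKO 1 to 3, against 7.58, 7.48 and 7.57 in control 1 to 3, and with each array centred on its median its difference was 0.03. Bms1, Nat10 (the RNA cytidine acetyltransferase), Rrp12 and Rrp9 had differences from 0.04 to 0.09, each with overlap. Utp20 and Nop14, with differences of 0.21 and 0.12, did not overlap.

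Large-subunit assembly factors had higher means in DKO for all 11 genes, against 39.8% of all genes, with a median difference of 0.09. The test was passed by 0 of 11 and by 1.72% of all genes. All DKO arrays lay above all control arrays for 4 of the 11 and for 8.22% of all genes. At an unadjusted limma p under 0.05, 1 was higher, against 6.39% of all genes. Wdr12, which works in one complex with Pes1 and Bop1, read 8.03, 8.07 and 7.92 in DKO 1 to 3, against 7.76, 7.71 and 7.92 in control 1 to 3. Its difference was 0.21 ± 0.08 (SE), with a limma adjusted p of 0.231, and the margin between DKO 3 and control 3 was narrow. Its partners differed less, with 0.06 ± 0.06 (SE) for Pes1, whose groups did not overlap (0.03 without DKO 1), and 0.02 ± 0.07 (SE) for Bop1. Bop1, nearest to 0 in the class, read 9.07, 8.88 and 9.04 in DKO 1 to 3, against 8.95, 9.001 and 8.99 in control 1 to 3, and its DKO arrays lay on both sides of the controls.

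Helicase, methyltransferase and GTPase genes of the large subunit lay between these. Ddx18, an RNA helicase, read 9.48, 9.32 and 9.43 in DKO 1 to 3, against 9.26, 9.23 and 9.29 in control 1 to 3 (0.15 ± 0.07 SE, limma adjusted p 0.329). A dimmer row of Ddx18 had a difference of -0.03, and the mean of both rows one of 0.06 (limma adjusted p 0.675). Ftsj3, a ribosomal RNA methyltransferase, read 8.11, 7.94 and 7.95 in DKO 1 to 3, against 7.84, 7.85 and 7.92 in control 1 to 3 (0.13 ± 0.07 SE, limma adjusted p 0.438). Both sets of DKO arrays cleared the controls, Ftsj3 by a narrow margin, and without DKO 1 the difference of Ftsj3 was 0.07. Gnl3, the nucleolar GTPase nucleostemin of stem and progenitor cells, read 9.30, 9.14 and 9.24 in DKO 1 to 3, against 9.01, 9.15 and 9.18 in control 1 to 3. Its groups overlapped, with a difference of 0.11 ± 0.07 (SE, limma adjusted p 0.518), which was 0.08 without DKO 1 and 0.06 without control 1. Gnl2, a related GTPase, had a difference of 0.05, and Nop2, a cytosine methyltransferase whose E-box is shown above, one of 0.04. Nop16, Ebna1bp2 and Rrp1b had differences of 0.09, 0.14 and 0.02, each with overlap.

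The DKO arrays kept an order across many members. DKO 1 was the highest of the 3 DKO arrays for 30 of the 42 members (71.4%) and for 35.4% of all genes, and DKO 2 was the lowest for 30 of them (71.4%) and for 42.9% of all genes. Averaged over the 42 members, arrays stood above the control mean by 0.18 in DKO 1, 0.04 in DKO 2 and 0.10 in DKO 3, while the control arrays lay between -0.02 and 0.03. The 16724 genes as a whole lay between -0.03 and 0.0013 in the DKO arrays. Without DKO 1, 29 of 42 members had a higher mean in DKO, with a median of 0.07: 1 of 7 in the polymerase class, 7 of 8 in the snoRNP class, 14 of 16 in the small-subunit class and 7 of 11 in the large-subunit class. Without DKO 2 the count was 41 and the median 0.14. With each array centred on its median, 41 of 42 had a higher mean, the median was 0.12 and the median of all genes was -0.00060.

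**Figure D3:**
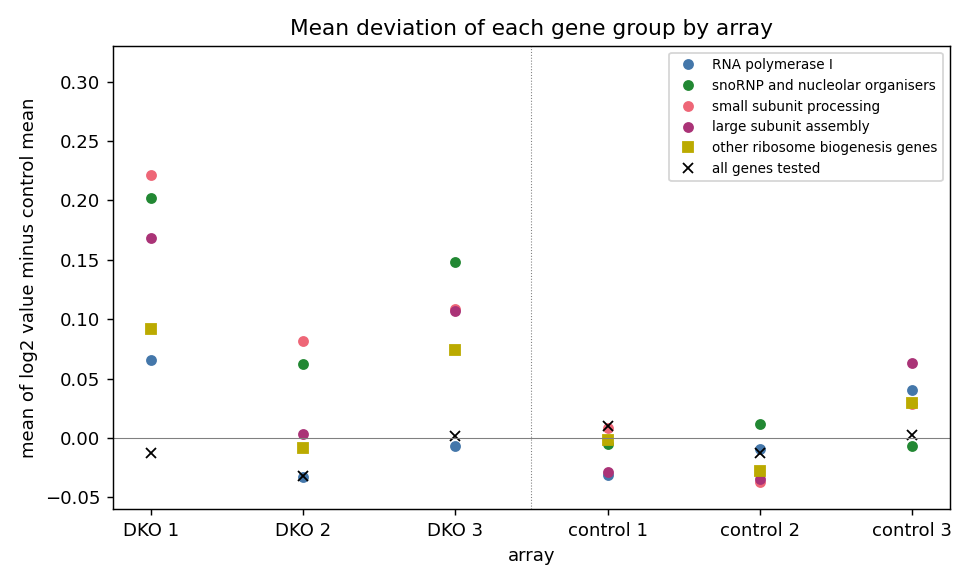
Mean over the genes of a group of the log2 value minus that gene's mean in the 3 control arrays, shown for each array (DKO left, control right), for the 4 role classes, the other ribosome biogenesis genes and all genes tested. DKO 1 stands highest for each of the 4 classes, and in DKO 2 the large-subunit class lies at 0.0037 and the polymerase class at -0.03.

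**Figure D4:**
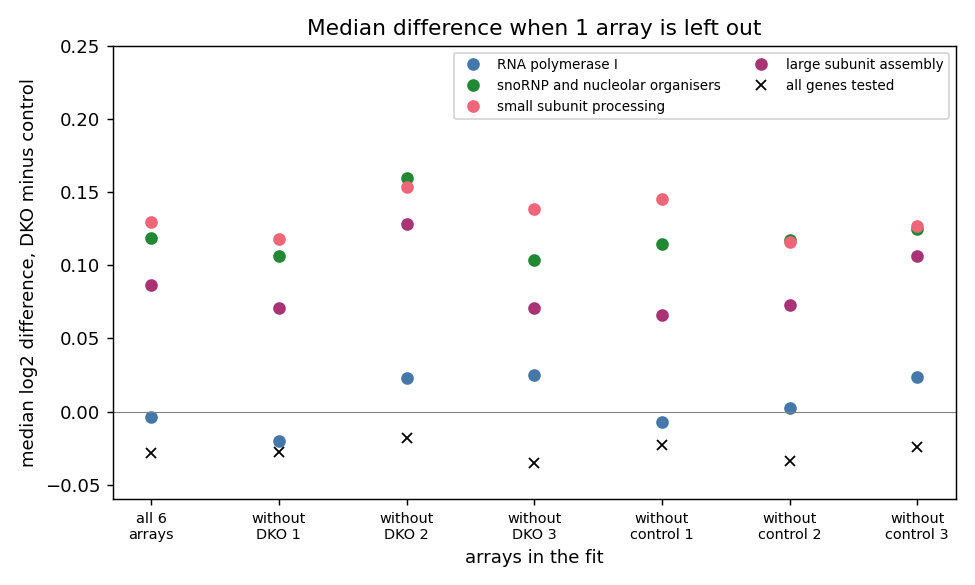
Median log2 difference, DKO minus control, of each role class and of all genes tested, with all 6 arrays and with each array left out in turn. The medians of the small-subunit class stay between 0.12 and 0.15, and those of the polymerase class between -0.02 and 0.03.

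Embryo sex was not in the labels and was read from Xist and 3 Y-linked genes after the data were seen. DKO 1, DKO 2 and control 2 read as male, and DKO 3, control 1 and control 3 as female, so sex was not balanced between genotypes. Among males the median difference of the members was 0.12, with 40 of 42 higher in DKO (2 DKO arrays, 1 control array). Among females it was 0.08, with 33 of 42 higher (1 DKO array, 2 control arrays). Of all 16724 genes, 7547 were higher in DKO among males and 7557 among females. Neither comparison has enough arrays for a test. With sex as a block in the fit, 38 of 42 members and 42.5% of all genes were higher, the members' median was 0.10 and 0 members passed.

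Further genes of the pathway were described in the same way. Of 114 named by function, 108 were tested: 75 had a higher and 33 a lower mean in DKO, with a median difference of 0.06. Over all genes tested 39.8% had a higher mean. One rose and 0 fell, where 1.36% of all genes tested rose and 0.359% fell. The gene that rose was Ltv1, an adaptor on late small-subunit particles, which read 8.98, 8.84 and 8.89 in DKO 1 to 3, against 8.56, 8.55 and 8.54 in control 1 to 3. Its difference was 0.35 ± 0.06 (SE), with a limma adjusted p of 0.0309. With single arrays removed the call held without DKO 2 (adjusted p 0.0374), was lost for each of the other 5 (adjusted p up to 0.131, without control 1) and was lost with embryo sex (0.0814) or the replicate number (0.0854) as a block. Its difference was 0.35 with sex as a block and 0.31 to 0.38 with single arrays removed. The replicate block leaves every difference unchanged, so the same 0.35 there was fixed in advance. Dhx37, a helicase of the same small-subunit list, had a difference of -0.21 ± 0.06 (SE, limma adjusted p 0.149), and its DKO arrays all lay below the controls.

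The other groups of the pathway held no call. Of 9 further polymerase I genes 5 had a higher mean, with Twistnb, a polymerase I subunit, at 0.29 ± 0.10 (SE, limma adjusted p 0.231) and Polr1d, another subunit, at 0.10 ± 0.06 (SE). Of 12 snoRNP assembly genes 8 had a higher mean, with Znhit6, an assembly factor of box C/D particles, at 0.18 ± 0.06 (SE) and Gar1, a box H/ACA protein, at 0.25 ± 0.09 (SE). Of 41 large-subunit genes 32 had a higher mean, among them Sdad1 at 0.17 ± 0.06 (SE) and Rpf2 at 0.20 ± 0.07 (SE). Of 12 exosome and nuclease genes, whose products trim the precursor, 9 had a higher mean, with the exosome subunits Exosc2 at 0.16 ± 0.06 (SE) and Exosc8 at 0.12 ± 0.06 (SE). Of 34 small-subunit genes 21 had a higher and 13 a lower mean. List medians were 0.08 for polymerase I, 0.08 for snoRNP, 0.04 for small-subunit, 0.06 for large-subunit and 0.08 for exosome genes, so that the further polymerase I genes, unlike the 7 members of that class, did not have the lowest median. Groups overlapped for Twistnb and Polr1d and did not for the other 6 genes named here. Limma adjusted p values were 0.196 or higher for all genes named in this paragraph.

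Cell type markers differed between the same arrays. Intermediate progenitor markers had mean levels of 8.24 to 8.45 in DKO and 8.71 to 8.89 in control arrays; all 8 had lower means in DKO, 4 fell (Btg2, Hes6, Mfng and Gadd45g, limma adjusted p 0.0385 or lower), and DKO 1 was the lowest array. Neuron markers had mean levels of 9.67 to 9.80 in DKO and 9.91 to 10.11 in control arrays; all 9 had lower means, with DKO 1 again lowest, and 0 passed the test. Hem and choroid plexus markers, 9 of 10 named, had mean levels of 6.21 to 6.68 in DKO and 5.74 to 6.01 in control arrays. All 9 had higher means in DKO, and 2 rose, Ttr and Lmx1a. Ventral telencephalic markers (6 of 8) ran from 6.96 to 7.12 in DKO and 7.11 to 7.47 in control arrays, and endothelial markers (8 of 8) from 6.84 to 7.40 in DKO and 7.35 to 7.53 in control arrays. All 6 ventral and all 8 endothelial markers had lower means in DKO. Meningeal markers (6 of 6) stood at 7.75 in DKO 1, 6.72 in DKO 2 and 7.37 in DKO 3, against 7.24 to 7.52 in control arrays. This is the same order of DKO arrays as in the mean of the members. Dorsal cortex markers held this order over a far narrower span, at 9.40, 9.32 and 9.33 in DKO 1 to 3, with DKO 2 and DKO 3 nearly equal. Neuron markers had the reverse order, at 9.67, 9.80 and 9.74. The 2 measured erythroid markers of 6 ran from 8.71 to 8.94 in DKO and 8.90 to 8.96 in control arrays. No marker of these last 4 lists passed. Log2 signals have no zero and no detection calls were used, so no marker can be called absent, and the part of these cell types in the ribosome biogenesis differences was not tested.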

How the data were processed

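Cortex RNA of 3 DKO and 3 control embryos (100 ng each, per the labels' protocols) was labelled with biotin and hybridised to 1 array per embryo. The log2 values deposited by the authors were made by RMA, per the submitters' processing notes, and the version is not given in the sources used. Such normalization brings the arrays' distributions close together, though not to equality here, so a change shared by all transcripts would largely not be seen. Array medians lay between 5.94 and 5.97 and correlations between arrays between 0.978 and 0.994.

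The table held 41345 rows, of which 23521 had 1 gene symbol, 1814 several and 16010 none. Genes with a mean under 5.02, which is percentile 25 over rows with 1 symbol, were left out. DKO and control were compared with limma 3.58.1 in R 4.3.3 (lmFit, eBayes, two-sided, no covariate), adjusted by Benjamini-Hochberg over all 16724 genes. The code was tested on simulated data. The members, lists and settings were chosen with earlier results of these data known. Array values are printed for all polymerase I members and, in each other class, for the 4 smallest p values and the 1 member most against its class median (or nearest 0). Of each further list the 2 genes with the smallest p are named. Other genes were named after their values were seen. Alternatives were 2 filters, 2 variance models, 2 normalizations, the mean of a gene's rows, the replicate number as a block, each array left out and, added later, embryo sex as a block.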

Additional observations from a re-analysis of the deposited data

How the results depend on the processing

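No setting called a member other than Heatr1, and 0 of 42 members were called without a filter, with a robust prior, with arrays centred, with the mean of a gene's rows, with either block or with any array left out. The count was 1 (Heatr1) with the stricter filter, with a trended variance and with a repeated quantile normalization. Leaving out 1 array gave 29 to 41 members with a higher mean and class medians from -0.02 to 0.03 (polymerase I), 0.10 to 0.16 (snoRNP), 0.12 to 0.15 (small subunit) and 0.07 to 0.13 (large subunit). The further pathway genes then had 0 or 1 call and medians of 0.04 to 0.08, and all genes 134 to 314 calls, against 288 with all arrays. The trended variance gave 485 calls and embryo sex as a block 189.

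Averaging a gene's rows moved Ddx21 to 0.0021, Ddx18 to 0.061, Nop56 to 0.00058 and Npm1 to 0.15. Leaving out DKO 1 moved 4 of the 18 members with no overlap by over 1.5 times: Nop58 to 0.14, Pno1 to 0.15, Ftsj3 to 0.071 and Pes1 to 0.034.

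Among 22 named members and 15 other settings, 300 of 330 differences kept their sign and their side of the threshold. Of the rest, 3 passed the threshold (Heatr1) and 27 changed sign. Many of the 300 signs were fixed in advance, so this count overstates how stable the signs were. Either change of filter, the trended variance, the robust prior and the replicate block leave every difference unchanged. There only the side of the threshold could move. Averaging rows could change the differences of Ddx21 and Ddx18 alone, since every other named member has a single row. Repeating the quantile normalization gave 0.0060 for Polr1e. Centring gave 0.020 for Polr1e, 0.024 for Rrn3, 0.021 for Ubtf and 0.0255 for Rcl1. The sex block gave -0.0070 for Polr1a, 0.0040 for Ubtf and 0.0059 for Rcl1. Ranges with 1 array left out were -0.042 to 0.039 for Polr1a, -0.020 to 0.14 for Polr1b, -0.055 to 0.030 for Polr1e, -0.049 to 0.025 for Rrn3, -0.018 to 0.014 for Ubtf, -0.0087 to 0.081 for Nolc1, -0.066 to 0.046 for Rcl1 and -0.020 to 0.074 for Bop1. The cause of these sign changes was not tested.

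Replicate numbers are shared between groups, and the labels do not tie them to litters. Same-numbered arrays had correlated deviations of -0.10, 0.21 and 0.15, and arrays of different numbers ran from -0.32 to 0.24. Each pair of a DKO and a control array was positive where embryo sex matched and negative where it did not. These values cannot tell whether same-numbered arrays share a litter, and the arrays were not treated as pairs. The replicate block gave 200 calls over all genes, 0 members called, 37 of 42 higher and 0 calls among the further pathway genes, where Ltv1 had an adjusted p of 0.0854. The count of 37 was fixed in advance, since this block leaves every difference unchanged. The number of arrays limits the precision.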
